A study of Homo sapiens with 4 samples.

Results

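The cadherin superfamily genes, together with catenins and plakophilins, were compared between control and SPNS2-overexpressing U118-MG cells. The 58 genes were taken from the count table by symbol alone: the numbered CDH and PCDH genes, the desmosomal DSC and DSG genes, FAT, DCHS, CTNNA, CTNND, PKP, CTNNAL1 and JUP. They are 58 of 61806 genes, and the rule reads symbols, not measured values. Beta-catenin, CTNNB1, does not match these symbols and is given with the adherens junction partners. U118-MG is an established human glioma line, labelled WT, and all 4 libraries come from it. The NC group (2 libraries) was infected with a lentiviral negative control built on pCDH-CMV-MCS-EF1-puro. The SPNS2 group (2 libraries) was infected with the same backbone carrying SPNS2, a sphingosine-1-phosphate exporter, so both groups share the viral backbone and its puromycin cassette. In this backbone a viral CMV promoter drives the insert. The labels do not say whether the libraries of a group are separate cultures, so each p-value speaks of the spread among these 4 libraries alone, which could be purely technical.

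Cadherins are calcium-dependent adhesion proteins whose outer repeats bind cadherins on the next cell. Classical cadherins (type I and type II) hold catenins on their tails, and alpha-catenin links that complex to actin. Desmosomal cadherins work in the same way but are tied to intermediate filaments through plakoglobin and plakophilins. Non-clustered protocadherins and the giant FAT and Dachsous cadherins do not use the classical catenin complex, and they act in cell sorting, migration and planar polarity. In glioma the neural and mesenchymal cadherin CDH2 is the usual classical cadherin, and the epithelial CDH1 is rare.

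The libraries held 31353373 to 34125159 counts, and 23501 to 25096 genes had a count in each. Counts of the targeted gene were 42 and 47 in NC against 7381 and 8224 in SPNS2, or 1.35 ± 0.0612 and 243 ± 4.75 CPM (counts per fixed library total, after TMM scaling, mean ± SD, n = 2). This separates the libraries as they are labelled, although reads of the introduced and the native gene are counted together. Of the glial markers only NES, a neural stem filament gene, was tested, and its means were 18.8 ± 2.2 in NC and 10.5 ± 0.592 CPM in SPNS2 (called lower, edgeR adjusted p = 0.024), while GFAP, S100B, SOX2, OLIG2 and AQP4 were at or near 0. The 6 mesenchymal markers summed to 19513 and 19849 CPM in NC and 23091 and 22401 CPM in SPNS2, mostly FN1 and VIM: VIM and COL1A1 were called higher, COL3A1 lower (7.05 ± 0.479 against 0.763 ± 0.0227 CPM, edgeR adjusted p = 0.00304), and FN1, COL1A2 and THY1 were not called. The 6 epithelial markers summed to 2.09 and 2.26 CPM in NC and 3.38 and 3.15 CPM in SPNS2. EPCAM, CDH1 and KRT19 were at or near 0, and KRT8, CLDN4 and ESRP1 were not called. The 4 endothelial markers summed to 3.49 and 5.2 CPM in NC and 7.31 and 8.45 CPM in SPNS2. Of these PECAM1 was called higher (3.03 ± 0.757 against 6.38 ± 0.475 CPM, edgeR adjusted p = 0.0465), KDR was not called, and CDH5 and TEK were at or near 0. The 4 haematopoietic markers summed to 130 and 111 CPM in NC and 76.2 and 65.9 CPM in SPNS2, nearly all of it CD68. CD68 was called lower (120 ± 13.7 against 70.9 ± 7.45 CPM, edgeR adjusted p = 0.0195), PTPRC and CD3E were at or near 0, and ITGAM was not called. Of the 3 neuronal markers SYT1 was called lower (15.9 ± 0.396 against 2.56 ± 0.273 CPM, edgeR adjusted p = 0.00273), SNAP25 was called higher (2.84 ± 1.15 against 10.4 ± 3.53 CPM, 0.0399) and RBFOX3 had no counts. With 1 library left out the calls of NES (edgeR adjusted p 0.061 to 0.1), PECAM1 (0.0682 to 0.143) and SNAP25 (0.0595 to 0.116) ended in every fit, and that of CD68 without NC library 1 (0.0704) or SPNS2 library 2 (0.0713). The part of these markers in the results was not tested.

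Among the tested genes every called protocadherin, FAT and Dachsous gene was lower in SPNS2, 4 of 6 called type II cadherins were higher, and CDH2 was slightly lower. In all, 34 genes passed the filter on low counts: 8 rose, 13 fell and 13 did not pass the edgeR test at an adjusted p under 0.05. Across all 17853 tested genes 12.1% were called higher and 11.3% lower, 23.4% in either direction. The members' median log2 fold change was -0.22, beside -0.009 over all tested genes. Of the 34 tested members 13 were called with at least a 2-fold change, beside 9.90% of all tested genes. These counts are a description only. Of the 34 genes, 23 passed the filter with both libraries of both groups. With both libraries of only NC 6 passed (CDH12, CDH19, CDH20, CDH26, DCHS2 and PCDH15), and of only SPNS2 3 (CDH4, CTNNA2 and PCDH12). FAT2 and PCDH17 passed with both libraries of neither group. Those of only NC or only SPNS2 had to be higher in that group, except CDH12, PCDH15 and PCDH12. In these a library of the other group also reached the filter's level, so their direction was favoured but not fixed. The other 24 genes were too low to test, and 7 of these had no count in any library (CDH17, CDH22, DSC3, FAT3, PCDH8, PCDH19 and PCDH20), which at this depth allows up to 0.0892 to 0.0975 CPM per library.

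**Figure D1:**
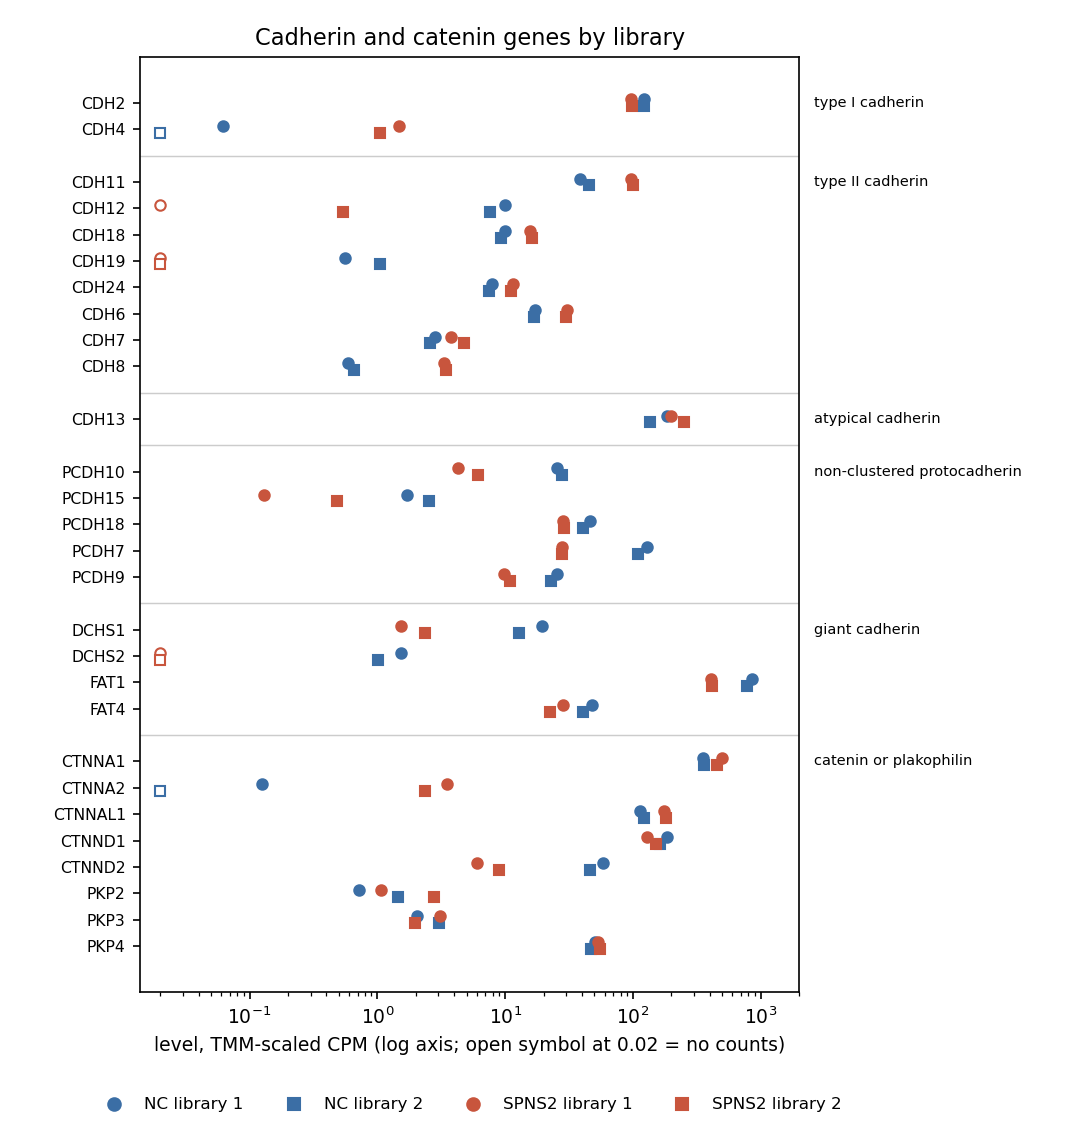
Level of each tested member with a mean of at least 1 CPM in a group, and of CDH19, in each of the 4 libraries (TMM-scaled CPM, log axis, open symbols for no counts), ordered by type. FAT1 is the highest of them in NC at 859 and 782 CPM and lies at 409 and 418 CPM in SPNS2, and the protocadherins all lie lower in both SPNS2 libraries.

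Of the 5 type I cadherins, only CDH2 and CDH4 were high enough to test. CDH2 (N-cadherin, the adhesion molecule of neural and mesenchymal cells, GRCh38 chr18:27950966-28177446) stood at 123 and 122 CPM in NC against 96.6 and 98.1 CPM in SPNS2. The groups did not overlap, and the level fell 1.26-fold, by 0.34 on the log2 scale (SE 0.06, edgeR adjusted p = 0.0227). The fall is small, and leaving out any 1 library ended the call, with edgeR adjusted p of 0.0806 to 0.0939. Both SPNS2 libraries were below both NC libraries in 33.6% of all tested genes, and above both in 32.4%, so the separation alone is common here. CDH4 (R-cadherin, a close relative of CDH2 that can pair with it, chr20:61252426-61940617) had 2 and 0 counts in NC and 46 and 35 in SPNS2. This is 1.27 ± 0.315 CPM in SPNS2 and a ratio of 41.5 with an exact 95% counting interval of 11.1 to 348, and it was called higher (edgeR adjusted p = 0.0267). Its call ended without NC library 2 (0.0645), SPNS2 library 1 (0.0911) or SPNS2 library 2 (0.0728), in edgeR adjusted p, and its fitted log2 change ran from 4.26 to 8.38 with 1 library left out. CDH1, the E-cadherin of epithelia, had 6, 9, 5 and 2 counts in NC library 1, NC library 2, SPNS2 library 1 and SPNS2 library 2 and was not tested.

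The type II cadherins, relatives of the classical set with a different adhesive pocket, held the clearest rises. CDH11 (OB-cadherin, a mesenchymal and bone cadherin, chr16:64943753-65126112) measured 38.2 and 45.1 CPM in NC and 96.8 and 100 CPM in SPNS2. Both SPNS2 libraries were above 2 times either NC library's level, and the group means, 41.6 ± 4.81 and 98.4 ± 2.27 CPM, differed 2.36-fold (log2 1.24, SE 0.10, edgeR adjusted p = 0.00443). CDH8, a brain cadherin on the same chromosome arm (chr16:61647242-62037035), was low throughout, at 0.593 and 0.654 CPM in NC against 3.35 and 3.42 CPM in SPNS2. It rose 5.43-fold (log2 2.43, SE 0.27, edgeR adjusted p = 0.00859). The median of all tested genes on that arm, 16q, was 0.04 on the log2 scale, well under either rise. The calls of CDH11 and CDH8 held with any 1 library left out, that of CDH8 close to the threshold.

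CDH6 and CDH18 rose by less. CDH6 (K-cadherin of kidney and neural crest, chr5:31193750-31329146) was at 17.2 and 16.8 CPM in NC and 30.5 and 29.9 CPM in SPNS2, a 1.77-fold rise (log2 0.83, SE 0.10, edgeR adjusted p = 0.0101). CDH18, a cadherin of the nervous system (chr5:19472951-20575873), was at 9.98 and 9.33 CPM in NC and 15.7 and 16.2 CPM in SPNS2, a 1.65-fold rise (log2 0.73, SE 0.13, edgeR adjusted p = 0.0245). In both genes the replicates lie close together and the groups are apart, but both sit on 5p, where the median tested gene was higher by 0.30 on the log2 scale. Against that median CDH6 was still called, while CDH18 stood 0.42 above it with an edgeR adjusted p of 0.0925. Without NC library 1 or NC library 2 the edgeR adjusted p of CDH6 was 0.0522 and 0.0541, and that of CDH18 was 0.0756 to 0.105 without any 1 library. CDH24 (chr14:23047062-23057538) was at 7.83 and 7.52 CPM in NC and 11.5 and 11.1 CPM in SPNS2 and narrowly missed the threshold (log2 0.56, SE 0.14, edgeR adjusted p = 0.0545), though limma-voom called it. CDH7 (chr18:65750252-65890341), at 2.84 and 2.59 CPM in NC and 3.77 and 4.77 CPM in SPNS2, did not pass (log2 0.65, SE 0.23, edgeR adjusted p = 0.118).

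CDH12 and CDH19 were the type II cadherins called lower. CDH20, with 21 and 39 counts in NC and 0 and 7 in SPNS2, and CDH10, with 16 and 26 against 12 and 23, also had negative log2 changes (-3.04 and -0.23) but were not called (edgeR adjusted p = 0.141 and 0.794). CDH12, a brain cadherin beside CDH18 on 5p (chr5:21750673-22853622), was at 9.98 and 7.64 CPM in NC and at 0 and 0.539 CPM in SPNS2. The means of 8.81 ± 1.66 and 0.27 ± 0.381 CPM differed 32.7-fold (called lower, edgeR adjusted p = 0.0391), against an arm whose median rose. Its SPNS2 libraries hold 0 and 18 counts, so the size of the fall depends on which is kept: the fitted log2 change was -4.01 without SPNS2 library 1 and -11.15 without SPNS2 library 2. The call ended without NC library 1 (edgeR adjusted p = 0.124) or NC library 2 (0.103), and with DESeq2 (adjusted p = 0.106). CDH12 and CDH18 had the same 320 counts in NC library 1, and in SPNS2 library 1 they had 0 and 483. CDH19, known from the Schwann cell lineage (chr18:66501083-66604138), had 18 and 35 counts in NC and none in SPNS2. With 3 counts assumed for the whole empty group as a floor, it was at least 17.2-fold lower (edgeR adjusted p = 0.0309), a call lost with any 1 library left out (0.0693 to 0.137). The summed level of the melanocyte and Schwann markers was 1.75 and 2.70 CPM in NC and 1.43 and 0.899 CPM in SPNS2, and its part in the result was not tested.

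Because exon length differs between genes, levels of different cadherins were compared as CPM per kilobase of exon. On that scale the type I and type II cadherins summed to 35.7 and 35.7 in NC and to 36.3 and 37.1 in SPNS2, so the sum moved little while its make-up shifted. CDH2 took 69.7% and 69.3% of the sum in NC and 53.7% and 53.4% in SPNS2. CDH11 took 8.0% and 9.44% in NC and 19.9% and 20.1% in SPNS2. CDH18 went from a mean share of 5.58% to 8.96%, CDH6 from 3.85% to 6.65%, CDH24 from 5.74% to 8.20% and CDH12 from 4.16% to 0.123%. Per kilobase, CDH11 amounted to 0.115 and 0.136 of CDH2 in NC and to 0.371 and 0.377 of it in SPNS2 (0.195 and 0.232, and 0.631 and 0.642, with the longest transcript of each gene as its length). CDH2 stayed the most abundant classical cadherin transcript in each library. The length matters to the sum: with each gene's longest transcript as its length, the mean sums were 44.4 in NC and 49.2 in SPNS2 and the CDH2 share fell from 63.8% to 45.7%. No test was made on these shares, since 2 libraries against 2 cannot give a two-sided exact permutation p below 0.333.

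**Figure D2:**
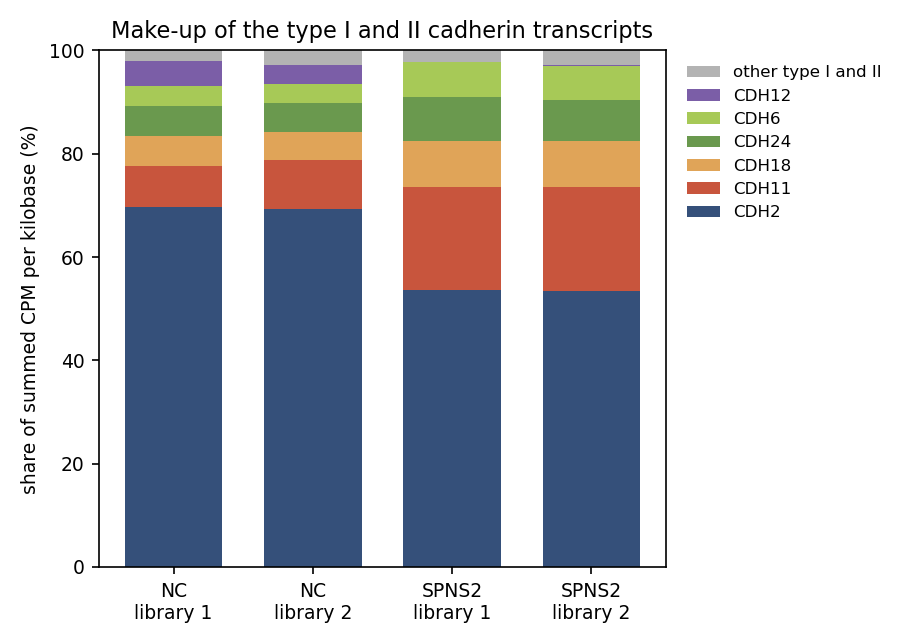
Share of each cadherin in the summed type I and type II cadherin level (CPM per kilobase of exon, percent) in each of the 4 libraries. The CDH2 segment is 69.7% and 69.3% in NC against 53.7% and 53.4% in SPNS2, and the CDH11 segment is the main one to widen.

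Only CDH13 of the atypical cadherins was expressed at a level to describe. CDH13 (T-cadherin, held in the membrane by a lipid anchor and lacking the tail that binds catenins, chr16:82626803-83800640) was at 184 and 137 CPM in NC and 198 and 250 CPM in SPNS2. The libraries of a group differ widely here, by 161 ± 33.4 and 224 ± 36.9 CPM as mean ± SD, and the difference did not pass (log2 0.48, SE 0.19, edgeR adjusted p = 0.148). CDH26 was tested only because of its NC counts, and its fitted log2 change of -3.46 was not called (edgeR adjusted p = 0.089).

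Non-clustered protocadherins are single genes that act in neuronal wiring and cell movement, and several bind the WAVE actin regulators or protein phosphatase PP1 through their tails. Of 11 such genes 7 were tested: 5 fell, beside 11.3% of all tested genes called lower, and PCDH12 and PCDH17 were not called. Of the 5, PCDH15 passed the low-count filter with both libraries only in NC. The 250 bases upstream of the RefSeq start (GRCh38.p14) are shown for the 3 protocadherins that fell and have a single start in that table, 5′ to 3′ on the gene's strand, to let their base make-up be compared, and the capitals mark CG dinucleotides. The start these cells use was not measured. The PCDH7 window lies at chr4:30720119-30720368 on the plus strand, that of PCDH9 at chr13:67230337-67230586 on the minus strand and that of PCDH18 at chr4:137532495-137532744 on the minus strand.
PCDH7: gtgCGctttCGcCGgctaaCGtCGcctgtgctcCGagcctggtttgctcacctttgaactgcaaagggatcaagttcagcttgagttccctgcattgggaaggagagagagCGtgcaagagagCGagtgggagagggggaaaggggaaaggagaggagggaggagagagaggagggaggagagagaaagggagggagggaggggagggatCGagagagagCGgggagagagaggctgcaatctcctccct
PCDH9: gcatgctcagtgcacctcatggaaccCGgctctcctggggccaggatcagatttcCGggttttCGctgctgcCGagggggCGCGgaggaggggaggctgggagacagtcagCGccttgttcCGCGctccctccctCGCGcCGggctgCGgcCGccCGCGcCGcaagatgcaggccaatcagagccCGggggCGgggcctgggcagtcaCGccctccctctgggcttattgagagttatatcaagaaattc
PCDH18: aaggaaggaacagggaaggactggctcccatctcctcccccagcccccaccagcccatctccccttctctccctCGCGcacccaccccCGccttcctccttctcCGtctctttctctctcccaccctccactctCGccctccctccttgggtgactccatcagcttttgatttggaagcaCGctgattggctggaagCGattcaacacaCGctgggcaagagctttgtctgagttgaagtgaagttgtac
The 3 windows differ in make-up: PCDH9 holds 20 CG dinucleotides, PCDH7 10 and PCDH18 8, with GC contents of 66.8%, 59.6% and 58.4%. Only PCDH9 is CG-dense (GC over 50% and CG observed over expected above 0.6), as are 44.8% of the 35116 upstream windows of the same length in the table and 25 of the 62 windows that 38 of the members have there. The E-box recognised by SNAI and ZEB repressors, spelled CAGGTG and its reverse complement CACCTG and searched on both strands, is in none of the 3, in 8 of the members' 62 windows and in 17.5% of all windows. So these promoters share neither dense CG nor that motif in this window, which says nothing of a factor's binding.

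PCDH7, a protocadherin whose tail binds PP1 (chr4:30720415-31146805), was the most abundant of them in NC, at 130 and 109 CPM, and stood at 27.8 and 28 CPM in SPNS2. It fell 4.29-fold, by 2.10 on the log2 scale (SE 0.11, edgeR adjusted p = 0.00201). PCDH10, a brain protocadherin that binds the WAVE complex (chr4:133149315-133208606), was at 25.6 and 27.8 CPM in NC and 4.26 and 6.08 CPM in SPNS2, a 5.16-fold fall (log2 -2.37, SE 0.21, edgeR adjusted p = 0.00531). PCDH9 (chr13:66302834-67230445) was at 25.6 and 23.0 CPM in NC and 9.78 and 11 CPM in SPNS2, a 2.34-fold fall (log2 -1.23, SE 0.13, edgeR adjusted p = 0.00831). In these 3 genes the groups are far apart, and each call held with any 1 library left out, that of PCDH9 narrowly at its weakest.

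PCDH18 and PCDH15 rest on less. PCDH18 (chr4:137518918-137532494) was at 46.4 and 41.0 CPM in NC and 28.6 and 28.8 CPM in SPNS2, a 1.52-fold fall (log2 -0.61, SE 0.10, edgeR adjusted p = 0.0223). Its call ended with any 1 library left out (edgeR adjusted p 0.0511 to 0.0867), and the tested genes of its arm, 4q, had a median of -0.32. PCDH15 (a tip-link protein of inner-ear hair cells, chr10:53802771-55627942) had 55 and 85 counts in NC and 4 and 16 in SPNS2, or 2.12 ± 0.573 and 0.305 ± 0.247 CPM. It was called lower at an edgeR adjusted p of 0.0497. The call ended without NC library 1 (0.114), NC library 2 (0.167) or SPNS2 library 1 (0.0908), with RLE scaling (0.0507) and with no filter (0.0601), and the fitted log2 change ran from -3.99 to -2.12 with 1 library left out. Per kilobase the protocadherins summed to 21.1 and 18.8 CPM in NC and 7.45 and 7.74 CPM in SPNS2. The order within the group changed with it: PCDH7 led in NC with a mean share of 48.9% and PCDH18 in SPNS2 with 56.5%, and the ratio of PCDH18 to PCDH7 per kilobase was 0.652 and 0.688 in NC and 1.88 and 1.88 in SPNS2. With the longest transcript as length, tried after these values were seen, the ratio was 0.408 and 0.431 in NC and 1.18 and 1.18 in SPNS2, and the gene that led in each group did not change.

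The giant cadherins fell in 4 of 5 tested genes, beside 11.3% of all tested genes called lower. DCHS2 among them passed the low-count filter only through NC. FAT1, a giant cadherin that touches actin regulation and Hippo signalling (chr4:186587783-186726722), was at 859 and 782 CPM in NC and 409 and 418 CPM in SPNS2. The mean fell 1.98-fold, 820 ± 54.7 against 413 ± 6.44 CPM (log2 -0.99, SE 0.06, edgeR adjusted p = 0.00283), and this held with any 1 library left out. Per kilobase FAT1 went from 50.7 to 25.5, and it made up 92.3% of the giant cadherin sum in NC and 93.6% in SPNS2. FAT4 and DCHS1 form a receptor and ligand pair that signals between neighbouring cells. DCHS1 (chr11:6621323-6655854) was at 19.4 and 12.8 CPM in NC and 1.53 and 2.34 CPM in SPNS2, an 8.33-fold fall (log2 -3.05, SE 0.34, edgeR adjusted p = 0.00855) on an arm whose median was 0.15. FAT4 (chr4:125316399-125492932) was at 47.5 and 40.9 CPM in NC and 28.5 and 22.6 CPM in SPNS2, a 1.73-fold fall (log2 -0.79, SE 0.16, edgeR adjusted p = 0.0323). The FAT4 call ended without NC library 1 (edgeR adjusted p = 0.121), NC library 2 (0.0753) or SPNS2 library 2 (0.086), while that of DCHS1 held in each such fit. DCHS2 (chr4:154231742-154495570) had 49 and 34 counts in NC and none in SPNS2, at least 27-fold lower with the same floor of 3 counts (edgeR adjusted p = 0.0181). That call ended without NC library 1 (0.0938) or NC library 2 (0.0713). Antisense transcripts overlap DCHS2 exons, and the strand setting of the counting is not given in the sources used here. FAT2 was not called (log2 -0.21, edgeR adjusted p = 0.87).

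Among the catenins and plakophilins of the symbol rule, which leaves out CTNNB1, 8 of 11 genes were tested: 3 rose, 1 fell and 4 were not called. Of all tested genes 12.1% were called higher and 11.3% lower. CTNNA2, among those that rose, passed the low-count filter only through SPNS2. CTNNA1 (alpha-E-catenin, the link from cadherins to actin, chr5:138610967-138935034) was at 355 and 358 CPM in NC and 500 and 454 CPM in SPNS2, a 1.34-fold rise (log2 0.42, SE 0.07, edgeR adjusted p = 0.0182). That size is the size of its arm: the median tested gene of 5q was higher by 0.43, and CTNNA1 less that median was -0.01 (edgeR adjusted p = 0.916). The call also ended without NC library 1 (0.0854) or NC library 2 (0.0811). CTNNAL1 (alpha-catulin, a relative of alpha-catenin, chr9:108942569-109013529) was at 114 and 122 CPM in NC and 176 and 182 CPM in SPNS2, a 1.52-fold rise (log2 0.60, SE 0.07, edgeR adjusted p = 0.00837) on an arm with a median of 0.07. CTNNA2, the alpha-catenin of neurons (chr2:79185231-80648861), had 4 and 0 counts in NC and 107 and 78 in SPNS2, or 0.0624 ± 0.0882 and 2.91 ± 0.805 CPM. It was called higher (edgeR adjusted p = 0.0233), not without SPNS2 library 1 (0.0808) or SPNS2 library 2 (0.0653), and its fitted log2 change of 5.48 ran from 4.5 to 9.57 with 1 library left out.

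The delta-catenin genes, whose products bind the cadherin tail near the membrane, differed from each other. CTNND2, the neural form (chr5:10971840-11904043), was at 58.0 and 46.4 CPM in NC and 6.04 and 8.99 CPM in SPNS2, a 6.94-fold fall (log2 -2.79, SE 0.25, edgeR adjusted p = 0.00509). It lies on 5p, where the median gene was higher, and its call held with any 1 library left out. CTNND1, the widely expressed form (chr11:57753243-57819546), was at 185 and 162 CPM in NC and 130 and 151 CPM in SPNS2 and did not pass (log2 -0.31, SE 0.11, edgeR adjusted p = 0.122). Per kilobase CTNND2 amounted to 0.402 and 0.366 of CTNND1 in NC and to 0.0595 and 0.0763 of it in SPNS2. The plakophilins, armadillo proteins of desmosomes and other junctions, were not called. PKP4 was at 50.9, 47.3, 53.5 and 55.7 CPM in NC library 1, NC library 2, SPNS2 library 1 and SPNS2 library 2 (log2 0.15, SE 0.08, edgeR adjusted p = 0.252). PKP2 was at 0.717, 1.46, 1.07 and 2.79 CPM in that order, and PKP3 at 2.03, 3.06, 3.12 and 1.98 CPM. The groups overlap in both genes (edgeR adjusted p = 0.407 and 1).

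None of the 7 desmosomal cadherins could be tested. Together DSC1 to DSC3 and DSG1 to DSG4 had 6 and 0 counts in NC against 14 and 31 in SPNS2, and no gene exceeded 0.42 CPM in a library. JUP (plakoglobin, the catenin that desmosomes share with adherens junctions) had 4, 0, 4 and 17 counts in the same order. DSC2 had 0 and 0 counts in NC against 6 and 7 in SPNS2, and DSG3 0 and 0 against 2 and 14. The groups of these low genes did not overlap, but both genes were under the filter and have no test. Both SPNS2 libraries were above both NC libraries in 32.4% of all tested genes, so such separation is common here. DSC2 and DSG3 were singled out after their values were seen. DSP, the desmoplakin that ties desmosomes to filaments, was also too low to test.

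The tested members are spread over many chromosome arms, and the median tested gene of several arms was shifted. The median log2 change was 0.30 on 5p, 0.43 on 5q, -0.30 on 4p and -0.32 on 4q, and 5 of the 13 called-lower members lie on 4q. With each arm's median removed, 6 members were called higher and 9 lower, beside 9.63% and 8.73% of all tested genes, or 18.4% in either direction. The calls lost were CDH2, CDH18, CTNNA1, FAT4, PCDH15 and PCDH18, and CDH2 then stood at -0.21 (edgeR adjusted p = 0.0754). PCDH7, PCDH10 and FAT1 fell by more than the medians of their arms and were still called. Removing the arm medians left 15 of the 21 calls in place.

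**Figure D3:**
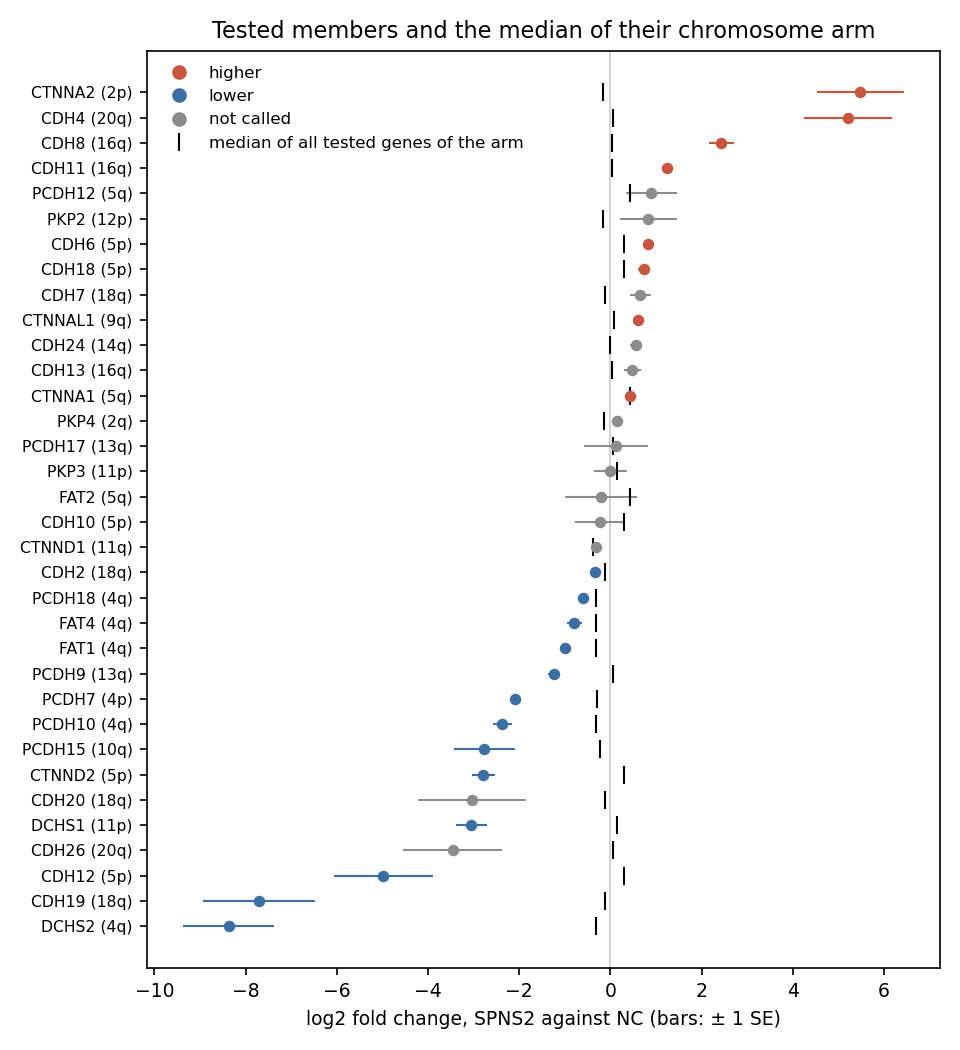
Log2 fold change (SPNS2 against NC, bars ± 1 SE) of the 34 tested members, with the median of all tested genes on each member's chromosome arm as a black tick. CTNNA1 (0.42) lies on the tick of 5q (0.43), while CTNND2 (-2.79) and CDH12 (-4.98) lie far below the 5p tick at 0.30; the positions of CDH19 and DCHS2, which have no counts in SPNS2, depend on the prior count and are no bound.

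Partners of the cadherins were taken from 5 lists. These were chosen with earlier results of these data known, so the counts called in them are a description only. Of 25 tested adherens junction partners 13 rose, 3 fell and 9 were not called, with a median log2 change of 0.46, beside 12.1% higher, 11.3% lower and a median of -0.009 over all tested genes. ACTN1, an actin crosslinker, rose 1.8-fold (451 ± 7.36 to 812 ± 8.73 CPM, edgeR adjusted p = 0.00201), the scaffold MAGI1 2.68-fold (25.1 ± 1.48 to 67.1 ± 1.48 CPM, 0.00269) and the actin-site protein ZYX 2.06-fold (98.2 ± 4.19 to 203 ± 8.42 CPM, 0.00292). Beta-catenin, CTNNB1, rose 1.5-fold (286 ± 3.59 to 430 ± 23.6 CPM, edgeR adjusted p = 0.00706). ADAM10, the protease that sheds CDH2 and other cadherins, went down 2.75-fold (377 ± 18.9 against 137 ± 1.98 CPM, edgeR adjusted p = 0.00134). With 1 library left out, 9 to 11 of these partners were called higher and 1 lower, beside 4.75% to 5.74% and 3.72% to 5.69% of all tested genes.

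Among 13 tested genes of the regulator list 3 rose, 4 fell and 6 were not called, beside 12.1% higher and 11.3% lower of all tested genes. The list holds transcription factors known to act on cadherin genes and the splicing regulators ESRP1 and ESRP2, which were not called. SNAI2, a repressor of CDH1, rose from 50.2 ± 0.0653 to 204 ± 1.25 CPM, 4.06-fold (log2 2.02, edgeR adjusted p = 0.000877). ZEB2, another repressor of CDH1, was 2.29-fold lower, at 194 ± 19.4 and 84.7 ± 0.734 CPM (edgeR adjusted p = 0.00364). GRHL1, an epithelial factor, was 14.3-fold lower, at 2.68 ± 0.716 and 0.187 ± 0.0107 CPM (edgeR adjusted p = 0.008). With 6 and 6 counts in SPNS2 it passed the filter only through NC, so it had to be higher there. TCF3 rose 1.45-fold (edgeR adjusted p = 0.0108), not without NC library 1 (0.0595) or NC library 2 (0.0546). These regulators did not move one way, and CDH1 was too low in both groups to test.

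Of 15 tested Fat-Dachsous and planar polarity partners 2 rose, 2 fell and 11 were not called, beside 12.1% higher and 11.3% lower of all tested genes. FJX1, the four-jointed homologue that tunes FAT and Dachsous binding, was 3.3-fold lower (62.9 ± 7.57 against 19.1 ± 1.17 CPM, edgeR adjusted p = 0.0034), and CELSR1, a planar polarity cadherin outside the numbered genes, fell 3.96-fold (18.4 ± 0.294 to 4.65 ± 0.684 CPM, 0.00457). LIX1L and VANGL1 rose 1.56-fold and 1.49-fold, and each call ended in 3 of the 4 fits with 1 library left out (edgeR adjusted p 0.0501 to 0.0617 and 0.0785 to 0.0945). Of 12 partners of protocadherin tails 1 rose, 2 fell and 9 were not called, beside the same shares. CYFIP2 of the WAVE complex was 3.19-fold lower (22.6 ± 2.45 against 7.07 ± 0.248 CPM, edgeR adjusted p = 0.00475). WASF3 fell 1.41-fold (edgeR adjusted p = 0.0368) and WASF2 rose 1.18-fold (0.0478), and both calls ended with any 1 library left out (0.0576 to 0.129 and 0.0813 to 0.175). Of 5 tested desmosome partners 1 rose, 2 fell and 2 were not called, beside the same shares. VIM, the mesenchymal filament gene, rose 1.49-fold (4392 ± 497 to 6524 ± 428 CPM, edgeR adjusted p = 0.0205). PPL and KRT14 fell 4.73-fold and 12.8-fold (edgeR adjusted p = 0.012 and 0.0214). KRT14, with 10 and 3 counts in SPNS2, passed the filter with both libraries only in NC, which favours a higher level there. The VIM call ended without NC library 1 (0.0537), SPNS2 library 1 (0.0719) or SPNS2 library 2 (0.0527) and with arm medians removed (0.0599), that of PPL without NC library 2 (0.0579), and that of KRT14 without NC library 1 (0.0857) or NC library 2 (0.0758).

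**Figure D4:**
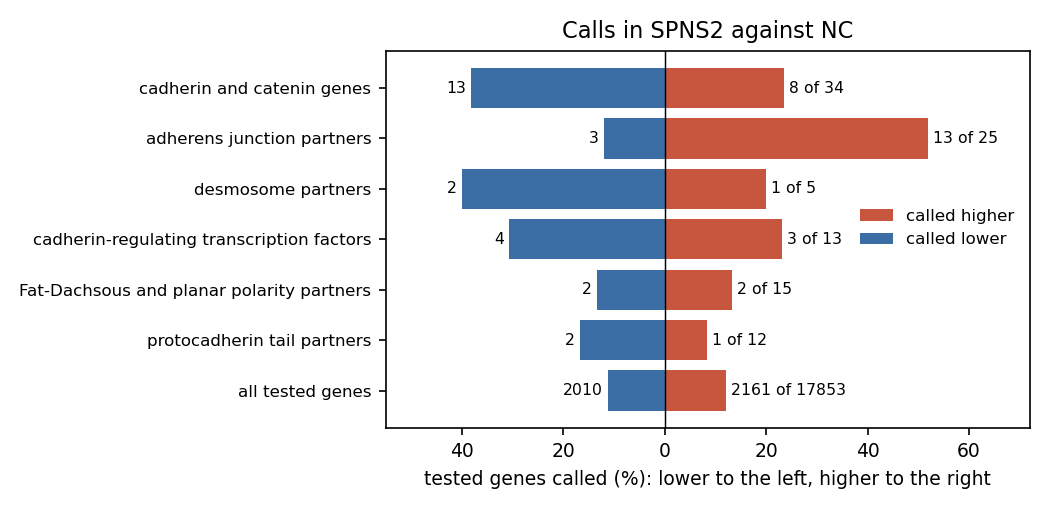
Percent of tested genes called higher (right) and lower (left) in SPNS2 at an edgeR adjusted p under 0.05, for the cadherin and catenin genes, 5 partner lists and all tested genes, with counts beside the bars. Adherens junction partners were called higher in 13 of 25 and lower in 3, and the cadherin and catenin genes higher in 8 of 34 and lower in 13. The lists were chosen with earlier results of these data known.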

How the data were processed

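RNA of 2 NC and 2 SPNS2 libraries was measured. The deposited values are raw counts per Ensembl gene, not normalized by the authors. The submitters' processing notes name Trim Galore 0.6.9, HISAT2 2.2.1, featureCounts 0.3 and hg38. Strandedness and the handling of multiply matching reads are likewise not stated there, so overlapping genes cannot be told apart. The table's 1 row of annotation text without counts was left out.

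Genes were kept by filterByExpr (minimum count 10, minimum total 15), scaled by TMM and compared with glmQLFit and glmQLFTest, the quasi-likelihood test of edgeR 4.0.16 (R 4.3.3, two-sided), with group as the only term and Benjamini-Hochberg adjustment over all 17853 tested genes. Each adjusted p is from that test unless another tool is named. SE is the log2 fold change over the square root of F. The code was also run on simulated counts drawn from its own fitted spread, which cannot bear on the calls in these libraries. Alternatives were RLE factors, library totals, other filters, a replicate block, leaving out each library, removal of arm medians, limma-voom (limma 3.58.1) and DESeq2 1.42.0. Positions and exon lengths are from GENCODE 29 on GRCh38, the hg38 assembly. Intervals and floors cover counting error only.

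Members with a mean of at least 1 CPM in a group are given in every library, and up to 4 called genes of smallest p per partner list. CDH19, CDH1, JUP, the low members named beside them and the partner CTNNB1 were singled out after their values were seen. The member rule reads symbols only, but the members and lists were chosen with earlier results of these data known.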

Additional observations from a re-analysis of the deposited data

How the results depend on the processing

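All 21 called members kept their direction in every fit that included them, except CTNNA1, which was -0.01 on the log2 scale (edgeR adjusted p = 0.916) with arm medians removed. With 1 library left out, 4 to 5 members were called higher and 6 to 9 lower, against 8 and 13 with all 4 libraries, and over all tested genes 848 to 1024 higher and 664 to 1015 lower, against 2161 and 2010. Of the 21 calls 9 held in all 4 such fits (CDH8, CDH11, CTNNAL1, CTNND2, DCHS1, FAT1, PCDH7, PCDH9 and PCDH10), and 4 held in none (CDH2, CDH18, CDH19 and PCDH18). When 1 library is left out, the lone library of its group is assumed to vary like the other group, and fewer samples are fitted. The replicate numbers are shared by label only: deviations of same-numbered libraries correlated at -0.0778. With the replicate block 4 members were called higher and 7 lower, and 1039 and 937 of all tested genes. RLE factors, library totals, other filters, limma-voom, DESeq2 and arm medians removed gave 6 to 9 members higher and 9 to 13 lower. The filter at a mean of 1 CPM left 18 of the 21 to fit, and all 18 were called. With the longest transcript as gene length, CDH2 made up 63.8% of the type I and II sum in NC and 45.7% in SPNS2, and CDH11 13.6% and 29.1%. Depth left the desmosomal cadherins untested, and the calls of CDH4, CDH19, DCHS2, CTNNA2 and PCDH15 rest on 53 to 185 counts summed over the higher group.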
